A study of Homo sapiens with 8 samples.

Results

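To describe the earliest chromatin response to TGFβ1 in this series, the ATAC-seq peak list of solvent-treated cells was set against the list of cells treated with TGFβ1 for 6 h. ATAC-seq uses a transposase that cuts and tags accessible DNA, so that a peak marks a stretch of open chromatin. The cells were MCF10A, a human mammary epithelial line that is immortalised but not tumorigenic, of wild-type genotype and grown with horse serum, epidermal growth factor, hydrocortisone, cholera toxin and insulin. The treated cells received TGFβ1 at 5 ng/ml for 6 h, and the controls received solvent only (BSA in PBS), for a time given as 0 in the labels and as 72 h in a legend of the study. Each condition had 2 replicates, 4 of the 8 libraries of the series, and the authors called the peaks of a condition on both replicates together. Each condition is therefore 1 value per region, differences could not be set against the spread between replicates, and no test was made. All members come from 1 cell line in culture.

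The members are the regions obtained by merging all peaks of both lists that shared at least 1 bp. There were 108052 such regions, against 126658 when the lists of all 4 conditions were merged. A region was shared when both lists had a peak in it. The measure was the area under the curve (AUC) that the peak caller gives for each peak, which grows with the height, the width and the sequencing depth of a peak. The AUC was summed per region and list. The log2 ratio of 6 h over solvent was then lowered by 0.44, its median over the shared regions within 3 kb of a transcription start site (TSS), and the result is called relative log2. A relative log2 of 0 thus stands for the median TSS-proximal region, whose AUC was 1.36-fold higher in the 6 h list. The study's methods state a nominal number of reads that was the same for every sample, but the totals reached are unknown, so a common rise in accessibility and a deeper 6 h library cannot be told apart, and the values below are relative to that shift.

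TGFβ ligands bind a pair of receptor kinases, the type II and type I receptors, which phosphorylate SMAD2 and SMAD3. These join SMAD4, enter the nucleus and bind short GTCT-type elements in DNA, usually beside other transcription factors such as AP-1, the family of FOS and JUN dimers. In mammary epithelial cells the pathway arrests growth, drives the synthesis of extracellular matrix and, with time, an epithelial-mesenchymal transition (EMT). The pathway limits itself through feedback inhibitors, among them the inhibitory SMADs and the SKI family of corepressors.

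The DNA under some of the regions that stood out is shown first, since several of these windows hold the elements just named. Each window is the 201 bp around the summit of the 6 h peak, read from the + strand of GRCh38, and the label is the nearest protein-coding gene. In the windows of the regions with the highest relative log2 and of a region with a peak at 6 h only, capitals mark matches to the AP-1 motif TGACTCA, to the paired SMAD element GTCTNGAC or to the single SMAD element GTCTGG, on either strand. In the windows of regions with a low relative log2, capitals mark the E-box CACCTG or the C/EBP motif TTNNGCAA. Windows touching an annotated untranslated region were left out. Only windows holding a match of the kind sought in their group were shown, so the motifs seen here follow from that choice. The windows of the high regions near PLAU, ADAM29 and TGFBI held no AP-1 or SMAD match, and the rest of these wider regions was not searched. The windows of the low regions near SMIM47, SRGAP2C, ZSWIM2 and SPNS2 held no E-box or C/EBP match. E-boxes were not marked in the high windows, and the window near HMCN1 holds one.
near TP63, high shared region, paired SMAD element, chr3:189572333-189572533: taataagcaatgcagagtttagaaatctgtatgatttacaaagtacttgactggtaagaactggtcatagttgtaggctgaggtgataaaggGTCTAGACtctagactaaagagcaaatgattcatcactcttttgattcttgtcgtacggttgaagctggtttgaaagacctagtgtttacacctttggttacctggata
CDYL, high shared region, single SMAD element and AP-1, chr6:4734346-4734546: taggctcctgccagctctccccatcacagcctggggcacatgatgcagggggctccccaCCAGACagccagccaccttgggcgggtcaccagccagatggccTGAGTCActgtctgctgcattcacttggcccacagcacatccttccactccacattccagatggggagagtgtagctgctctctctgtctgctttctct
FAM20A, high shared region, single SMAD element and AP-1, chr17:68564840-68565040: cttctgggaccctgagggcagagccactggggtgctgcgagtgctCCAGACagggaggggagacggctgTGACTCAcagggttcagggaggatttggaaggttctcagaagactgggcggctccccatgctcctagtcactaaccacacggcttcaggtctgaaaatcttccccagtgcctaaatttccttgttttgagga
near HMCN1, high shared region, AP-1 and paired SMAD element, chr1:185636867-185637067: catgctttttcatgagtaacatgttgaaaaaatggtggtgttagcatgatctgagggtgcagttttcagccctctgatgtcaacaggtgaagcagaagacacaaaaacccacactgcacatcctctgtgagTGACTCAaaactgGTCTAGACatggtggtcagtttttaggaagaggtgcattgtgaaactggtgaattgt
SHISAL2A, peak at 6 h only, single SMAD element, chr1:52636713-52636913: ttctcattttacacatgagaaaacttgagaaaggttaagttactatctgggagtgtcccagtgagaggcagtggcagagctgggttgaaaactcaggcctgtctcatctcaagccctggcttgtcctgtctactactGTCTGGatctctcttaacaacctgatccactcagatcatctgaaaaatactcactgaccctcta
near DDIT4, low shared region, C/EBP motif, chr10:72256284-72256484: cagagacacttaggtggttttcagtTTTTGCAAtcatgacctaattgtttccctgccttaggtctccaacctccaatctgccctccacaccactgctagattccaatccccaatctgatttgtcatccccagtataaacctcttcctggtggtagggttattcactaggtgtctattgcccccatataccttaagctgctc
near FTH1, low shared region, E-box and C/EBP motif, chr11:62042344-62042544: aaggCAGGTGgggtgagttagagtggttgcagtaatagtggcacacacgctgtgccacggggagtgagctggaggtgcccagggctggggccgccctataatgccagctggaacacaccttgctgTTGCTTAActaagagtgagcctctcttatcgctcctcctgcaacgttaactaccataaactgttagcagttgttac
GPR161, low shared region, E-box on both strands, chr1:168116605-168116805: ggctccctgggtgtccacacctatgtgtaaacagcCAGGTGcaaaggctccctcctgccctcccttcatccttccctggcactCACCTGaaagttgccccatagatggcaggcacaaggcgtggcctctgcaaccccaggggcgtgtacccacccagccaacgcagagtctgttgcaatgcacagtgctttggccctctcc

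The 6 h list was longer than the solvent list and its peaks were wider and larger. It held 107656 peaks against 86209, with a median AUC of 829 against 725. Of the merged regions, 82460 were shared, 24996 (23.1%) had a peak at 6 h only and 596 (0.552%) had one in solvent only. The smallest AUC of either list was 200, which is the authors' limit, so a region without a peak may still hold signal below it. Among shared regions the median peak length was 470 bp at 6 h and 377 bp in solvent.

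Relative to the proximal shift, regions far from start sites were slightly higher. The median relative log2 of the 49327 distal shared regions, which lay more than 3 kb from any TSS, was 0.12. By construction that of the 33133 proximal regions was 0. The middle of the distribution was narrow, with 5th and 95th percentiles of −0.34 and 0.87 over all shared regions. A relative log2 of at least 1 was found in 2807 shared regions (3.4%) and one of −1 or less in 176 (0.213%). Of the distal regions 4.32% passed the upper limit, and of the proximal ones 2.04%.

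Most regions with a high relative log2 were weak in solvent. Their median AUC was 295 in solvent and 1030 at 6 h, their median peak length went from 255 to 489 bp, and 73.0% of them had a solvent AUC under 400, against 25.1% of all shared regions. The relative log2 also depended on the level itself. When shared regions were cut into 10 equal parts by their mean log2 AUC, the median relative log2 was 0.09 in the lowest part, with an SD over regions of 0.42. It was 0.25 in the next, with an SD of 0.48, and declined from there to −0.08 in the highest, with an SD of 0.14. The part of the peak limit of 200 in these values was not tested. Of the 39698 regions with a mean AUC of at least 1000, 571 were high and 8 were low by the limits of 1 and −1. When each region was centred on the regions of like AUC, 1581 were high and 353 low. When the AUC was divided by the length of the peaks, 699 were high and 426 low.

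**Figure D1:**
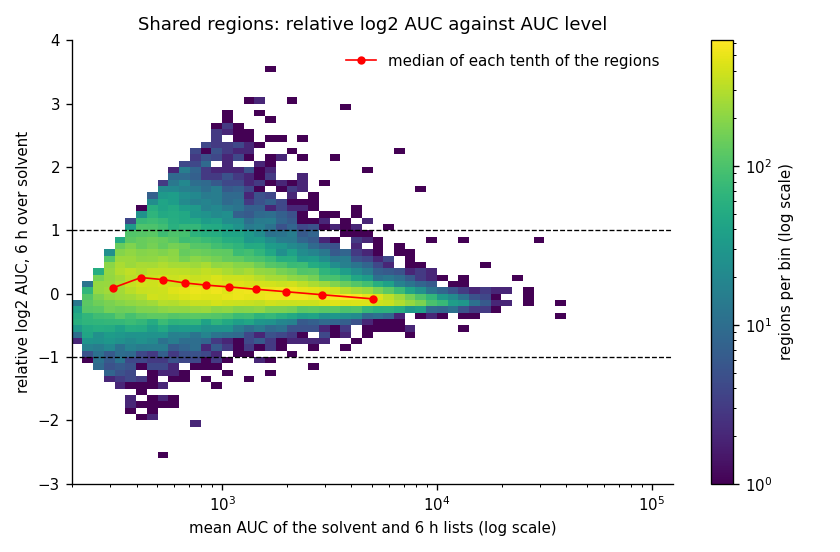
Relative log2 AUC (6 h over solvent) of the 82460 shared regions against the mean AUC of both lists on a log axis. Colour gives the regions per bin, red points give the median of each of 10 equal parts of the regions, dashed lines mark 1 and −1. Regions above 1 lie mostly below a mean AUC of 1000, and the medians go from 0.09 in the lowest part to 0.25 in the next and then decline to −0.08 as the AUC grows.

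The shared regions with the highest relative log2, among those with a mean AUC of at least 1000, were near genes of different kinds. The order was set by these values, so they are a description. The AUC given for 24 h and 72 h sums all peaks of those lists that touch the region, each counted whole. It was not centred and may include signal outside the region. The highest was a region of 760 bp in an intron of HECW1, which encodes a ubiquitin ligase of the NEDD4 family. Its AUC was 201 in solvent and 3126 at 6 h, a relative log2 of 3.52, and it was 4106 at 24 h and 4111 at 72 h. The region lay 1802 bp from the TSS and was one of 3 among these 8 that counted as proximal, with the TGFBI region described next and the region near HMCN1, which lies 2848 bp from the start site of a Y RNA. In solvent it only just passed the peak limit.

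PLAU encodes urokinase, a protease that activates plasminogen in the matrix. A region just past the end of PLAU, at chr10:73917510-73919368 (GRCh38) in an intron of the overlapping gene C10orf55, had an AUC of 337 in solvent and 3902 at 6 h (relative log2 3.09). In the lists of 24 h and 72 h it reached 11483 and 11669. TGFBI encodes a secreted matrix protein named for its induction by TGFβ. The region past its annotated end, at chr5:136063832-136067895, had an AUC of 615 in solvent and 6483 at 6 h (relative log2 2.96), followed by 12679 at 24 h and 14387 at 72 h. These were the regions of this group with the largest AUC at 24 and 72 h, and both had a smaller AUC at 6 h. Other 6 h peaks lay close to the PLAU region on both sides. The part of neighbouring peaks in the later values was not tested.

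The other 5 regions differed less between 6 h and the later lists. A region in an intron of a gene without symbol on chromosome 4, at chr4:175125176-175126037 and 207195 bp from the nearest protein-coding TSS (ADAM29, of the ADAM family of membrane proteins), went from 251 in solvent to 2873 at 6 h, and had 2810 at 24 h and 2939 at 72 h. A region 58949 bp from the TSS of TP63, the gene of the basal epithelial transcription factor p63, went from 222 to 2482 (relative log2 3.04) and had 3086 at 72 h. An intronic region of CDYL, which encodes a chromodomain corepressor, went from 245 to 2736 (3.04) and had 2844 at 72 h. An intronic region of FAM20A, which encodes a pseudokinase of the secretory pathway, went from 268 to 2693 (2.89) and was lower at 72 h, at 2011. A region 97361 bp from HMCN1, the gene of the matrix protein hemicentin, went from 201 to 1952 (2.84) and had 2905 at 72 h.

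In 7 of these 8 regions the solvent peak was narrow inside a much wider 6 h peak, so that the peaks did not overlap by 50% of both lengths. Only the HECW1 region met that overlap. Divided by peak length, the relative log2 remained positive in 7 of the 8, from 0.98 near PLAU to 2.85 at HECW1, but it was −0.27 in the TGFBI region, where the 6 h region spans 4064 bp. Centring on regions of like AUC left all 8 between 2.66 and 3.38, and lists of equal length, cut to the 86209 peaks of largest AUC, left them between 2.83 and 3.51.

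Among regions with a peak at 6 h and none in solvent, the median AUC was 303, and 225 of the 24996 had an AUC of at least 1000. For 4 large ones the later lists also had a peak. An intronic region of SHISAL2A, a gene of a Shisa-like membrane protein, had an AUC of 4219 at 6 h, 5646 at 24 h and 4748 at 72 h. A region at the untranslated part of ZSWIM4, a zinc finger gene, had 3245 at 6 h, 3754 at 24 h and 3624 at 72 h. A region 689589 bp from the nearest protein-coding TSS, that of HS6ST1, a heparan sulfate sulfotransferase, had 2839 at 6 h, 5159 at 24 h and 4855 at 72 h. The region in an intron of RAB11B-AS1 whose nearest protein-coding TSS is that of ANGPTL4, a secreted inhibitor of lipoprotein lipase, had 2543 at 6 h, 3525 at 24 h and 4675 at 72 h. All 4 thus lacked a solvent peak and kept a peak in every TGFβ1 list.

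Regions with lower values were fewer and their differences smaller. The lowest relative log2 among regions with a mean AUC of at least 1000 was −1.30, at an untranslated exon of GGCX, the vitamin K-dependent carboxylase, where the AUC was 1725 in solvent, 948 at 6 h, listed at 0 at 24 h and 387 at 72 h. A region 17571 bp from DDIT4, a stress-induced inhibitor of mTORC1, went from 1395 to 813 (−1.22), and then to 438 at 24 h and 269 at 72 h. A region of GPR161, a receptor of primary cilia, went from 1759 to 1193 (−1.0) and reached 223 at 72 h. A region 74777 bp from FTH1, the ferritin heavy chain gene, went from 1333 to 897 (−1.01) and had no peak at 72 h. In these 4 the later lists lay below the 6 h value.

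SPNS2 encodes an exporter of sphingosine-1-phosphate. A region 238 bp from one of its start sites went from 1956 to 1321 (−1.01), with 718 at 24 h and 756 at 72 h. In the other 3 of the 8 the value at 72 h lay above that at 6 h. A region in a coding exon of ACP4, with SMIM47 as the nearest gene, went from 2143 to 1256 (−1.21), was lower still at 24 h, at 781, and had 2078 at 72 h. A region 77191 bp from ZSWIM2 went from 1748 to 1141 (−1.06) and had 1251 at 24 h and 1443 at 72 h. A region on chromosome 1 at 125183465-125184260, 3996760 bp from the nearest protein-coding TSS, went from 3368 to 2123 (−1.11) and had 2420 at 24 h and 2563 at 72 h. Divided by peak length, the 8 values lay between −0.96 and −0.64.

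Of the 596 regions with a peak in solvent only, the largest AUC was 782 and none reached 1000. It lay 29979 bp from MAMDC2, a proteoglycan gene, and had no peak in any TGFβ1 list. The next were an intronic region of ZNRF1, a ubiquitin ligase gene, with an AUC of 678, one of ITGA3, the gene of a laminin-binding integrin subunit, with 523, one of TMEM164 with 503 and one of MAPK4, the gene of an atypical MAP kinase, with 442. None of these 5 had a peak at 6 or 24 h, and those of ITGA3 and TMEM164 had one again at 72 h, of 268 and 205.

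To see whether the named regions stood alone, all peaks within 50 kb of the start sites of TGFBI and PLAU were drawn. These 2 genes were picked for the map after their values had been seen. Around TGFBI the 6 h list had 30 peaks with a summed AUC of 71350, and the solvent list had 20 with 32332. Around PLAU there were 19 peaks with 47164 at 6 h and 16 with 27613 in solvent. At the TGFBI promoter itself the AUC was 4481 in solvent and 6225 at 6 h (relative log2 0.03), and at the PLAU promoter it was 3029 and 4507 (0.13). The difference at both genes was thus larger away from the start site than at it.

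**Figure D2:**
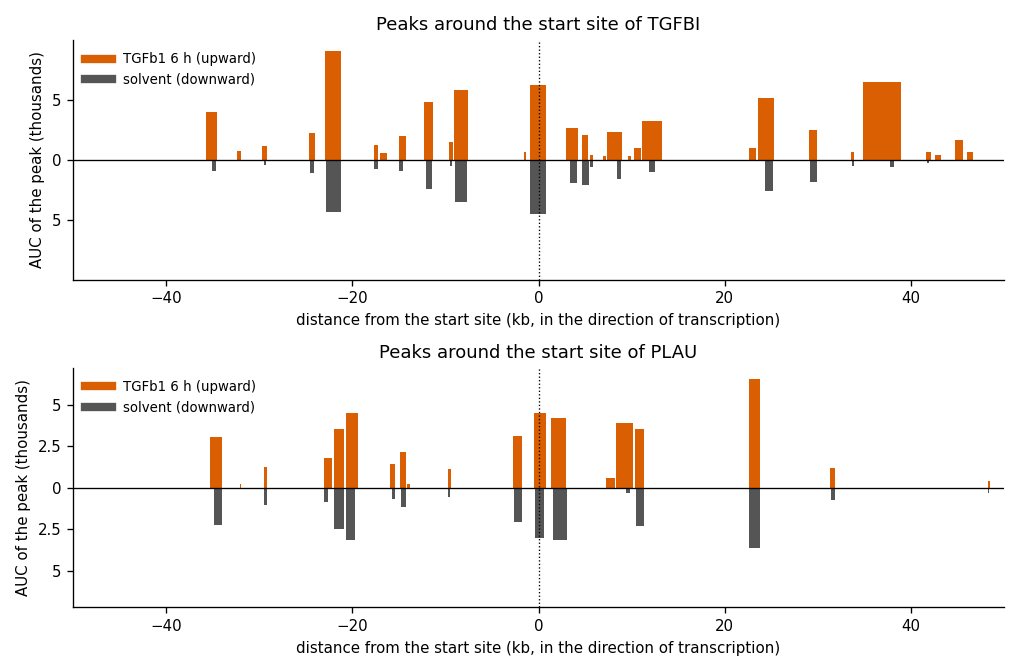
Peaks within 50 kb of the start sites of TGFBI and PLAU, with the AUC of each peak, in units of 1000, as bar height and its span as bar width, 6 h upward in orange and solvent downward in grey. The widest orange bar lies 34.8 to 38.9 kb past the TGFBI start site, and the bars at both start sites differ little between lists after the proximal shift.

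To describe genes, the regions within 100 kb of a protein-coding TSS were given to the gene whose TSS was nearest, and their AUC was summed per list, regions with a peak in 1 list included. Nearness does not show that a region acts on the gene. In all, 16167 genes had a value, with a median relative log2 of 0.07. A value of at least 0.5 was found for 1489 genes (9.21%) and one of −0.5 or less for 48 (0.297%). Counted over shared regions only, 561 genes passed the upper limit, and with the AUC per base only 166 did while 524 passed the lower one. Of the 61 genes that were recomputed under other settings, 29 had a value of the other sign with the AUC per base. Gene values therefore depended on the peaks found at 6 h only and on the summed length of the peaks.

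Ranked were the 8882 genes with at least 3 regions and a mean summed AUC of at least 3000. LGR5, a receptor for R-spondins known from stem cells, had 5 regions, whose AUC summed to 1040 in solvent and 5210 at 6 h (relative log2 1.88, and 1.70 over shared regions alone). IFNK, the interferon kappa gene of keratinocytes, had 3 shared regions, 2 of them above 1, with 1216 and 6053 (1.87). For both genes the difference stood in regions that already had a peak in solvent. TMPRSS11D, a trypsin-like serine protease of airway epithelium, had 1400 and 5236 (1.46, and 1.20 over shared regions).

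In the other highest genes much of the difference came from regions with a peak at 6 h only. LDLRAD4, which encodes a membrane inhibitor that holds back SMAD2 and SMAD3, had 14 regions, 8 of them at 6 h only, with 2284 and 8618 (1.48), and over shared regions alone its value was 0.74. ACAN, the gene of the proteoglycan aggrecan, had 2493 and 8796 (1.38, 0.79 over shared regions). PIK3C2G, a class II phosphoinositide 3-kinase gene, had 9 of its 10 regions at 6 h only (1.47, 0.37 over shared regions). WDPCP, a planar cell polarity gene, had 1.47 and 0.60, PNMA8A had 1.66 and 0.68, and the gene without symbol ENSG00000289710 had 1.79 and 0.84. With the AUC per base the values of PIK3C2G, PNMA8A and ENSG00000289710 were −0.01, −0.09 and −0.05.

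At the lower end SPNS2 stood furthest from the rest, with 4737 in solvent and 3820 at 6 h over 6 regions (−0.75). The next 5 were CFAP73, a gene of motile cilia (−0.50), CYP4B1, a cytochrome P450 gene (−0.48), CSF3R, the G-CSF receptor gene (−0.45), RCC1, the exchange factor of the GTPase RAN (−0.43), and GRK6, a kinase of G protein-coupled receptors (−0.43). Before centring their summed AUC was nearly the same in both lists, as in CFAP73 with 3997 and 3826 or RCC1 with 18253 and 18345.

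The promoter of a gene was the region of largest mean AUC with any part within 3 kb of one of its TSSs. It may thus lie in an intron or in another gene. Of the 15054 promoters with a peak in both lists, 458 (3.04%) had a value of at least 0.5 and 82 (0.545%) of −0.5 or less. Ranked were the 13377 promoters with a mean AUC of at least 1000. Beside HECW1, the highest of these were ACTBL2, an actin-like gene (AUC 236 in solvent and 2000 at 6 h, 2.64), WNT3, a Wnt ligand gene (264 and 1802, 2.33), CLDN14, a claudin gene (354 and 2245, 2.22), and MEIOB, a meiosis gene (384 and 1876, 1.85). In the later lists these 4 had between 1613 and 2665. The lowest, after SMIM47 and SPNS2, were TLR9, a receptor for unmethylated DNA (2416 and 1690, −0.96), CHRM1, a muscarinic receptor gene (1297 and 1002, −0.81), and EHF, an ETS factor of epithelial cells (1639 and 1283, −0.79). The EHF promoter went on to 591 at 24 h and 424 at 72 h.

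The pathway's own genes came next. Ligands, latent binding proteins and receptors had small values, with a median of 0.15 over 20 genes, against 0.07 over all genes. None of the 20 reached 0.5 (background 9.21%). The highest were BMPR1B, a BMP type I receptor (0.47), and LTBP1, which tethers latent TGFβ to the matrix (29148 in solvent and 49979 at 6 h, 0.34). The gene of the ligand TGFB1 had 3541 and 5838 (0.28), and those of the receptors TGFBR2 and TGFBR1 had 0.16 and 0.11. The lowest was TGFBR3, the co-receptor betaglycan (−0.03). The promoters of these genes had a median of −0.02, close to the −0.06 of all promoters.

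SMADs and feedback regulators had a median of 0.18, with 3 of 20 genes (15%) at 0.5 or more, against 9.21% of all genes. These were LDLRAD4, TGIF2, a corepressor of SMAD complexes (1434 and 3223, 0.73), and SMURF2, a ubiquitin ligase of SMADs and receptors (10838 and 21107, 0.52). PMEPA1, a feedback inhibitor that binds SMAD2 and SMAD3, had 25858 and 45575 (0.38), and the inhibitory SMAD7 had 28261 and 48578 over 26 regions, 6 of them at 6 h only (0.34). The corepressor SKIL had 8609 and 13395 (0.20). The signalling SMADs were lower, SMAD3 at 0.17, SMAD2 at 0.13 and SMAD4 at 0.07, and the deubiquitinase USP15 was the lowest at −0.09. Over shared regions alone the list's median was 0.08.

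Target genes of textbooks had a median of 0.19 with 3 of 19 (15.8%) at 0.5 or more, against 9.21% of all genes. COL1A2, a collagen I chain, had 3320 and 7451 (0.73), and TGFBI had 34565 and 74094 over 32 regions, 10 of them at 6 h only and 5 with a relative log2 of at least 1 (0.66). The promoter of COL1A2 went from 219 to 720 (1.28). Beside PMEPA1, SMAD7 and SKIL, which are also in this list, ID2 had 0.20, BHLHE40, a transcriptional repressor gene, 0.19, and CCN2, the gene of connective tissue growth factor, 0.18. JUNB had 9185 and 12561 (0.01). The lowest was ID1, a gene repressed by TGFβ in epithelial cells (26720 and 34056, −0.09).

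Genes of AP-1 subunits had a median of −0.0035, and none of 14 passed either limit (background 9.21% and 0.297%). JUN had 32978 and 45176 over 17 regions (0.01), FOSL1 −0.01, FOS −0.09 and JUND −0.10. MAFK and BATF3, of the related MAF and BATF families, were the highest at 0.28 and 0.26, and BATF2, with 1 region, the lowest at −0.26. At the JUN promoter the AUC was 12004 and 14395 (−0.18), and at the JUNB promoter 8445 and 11211 (−0.03).

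EMT transcription factors had a median of 0.25 with 2 of 13 (15.4%) at 0.5 or more, against 9.21% of all genes. These were GSC, the homeobox gene goosecoid (787 and 2072, 0.96), and PRRX1, a homeobox gene of mesenchyme (3642 and 7592, 0.62), both weak in solvent and both below 0 with the AUC per base. The PRRX1 promoter had no solvent peak and an AUC of 639 at 6 h. SNAI2 had 0.44, SNAI1 had 10386 and 18677 (0.41), ZEB1 6734 and 10726 (0.23) and ZEB2 0.03, and SNAI3 was the lowest at −0.10. The promoters of SNAI1 and ZEB1 were at −0.13 and −0.02, below the values of the genes. Of the regions of SNAI1 10 of 12 were distal, and of those of ZEB1 5 of 8. The sums were not split by distance.

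Genes of extracellular matrix and its proteases stood highest of the 12 lists, with a median of 0.40 and 9 of 30 genes (30%) at 0.5 or more, against 9.21% of all genes. Of the shared regions of these genes 10.0% had a relative log2 of at least 1, against 3.09% over the regions of all genes, and 26 of the 30 lay above the median of all genes. The highest were POSTN, the gene of periostin (783 and 2291, 1.11), and MMP13, a collagenase gene (1792 and 4410, 0.86). MMP10, a stromelysin gene, had 3408 and 8246 (0.83), and ADAM12, a metalloprotease gene, 10427 and 24100 (0.77).

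Fibronectin (FN1) and laminin β3 (LAMB3) differed also at their promoters. FN1 had 6568 and 13948 over 11 regions (0.65), and its promoter went from 882 to 2782 (1.22). LAMB3, part of the laminin of epithelial basement membranes, had 40149 and 85196 (0.64), and its promoter region went from 17932 to 44578 (0.87). Tenascin C (TNC) and PLAU both had 0.44, fibrillin (FBN1) 0.38 and SPARC 0.02, and the lowest member was THBS1, thrombospondin, at −0.02. These values depended on the measure. Over shared regions alone the list's median was 0.22, against 0.01 for all genes, and centred on like AUC it was 0.31. The AUC per base divides by the length of all peaks of a gene, those at 6 h only included. With it the list's median was −0.08, the same as the −0.08 of all genes. FN1 was then at −0.11, and TGFBI, of the textbook targets, at −0.37.

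Genes of the actin cytoskeleton, which is rebuilt during EMT, had a median of 0.25 with 4 of 25 (16%) at 0.5 or more, against 9.21% of all genes. MYL9, a myosin light chain gene, had 562 and 1469 (0.95), KANK4, a talin-binding adaptor gene, 12570 and 25851 (0.60), and the smooth muscle genes CNN1 and TAGLN 0.56 each. At the promoters 5 of 25 reached 0.5 (background 3.04%), those of TNS1 (0.85), KANK4 (0.60), CNN1 (0.56), TAGLN (0.56) and MYL9 (0.53). CNN1 and TAGLN had 1 region each, the promoter, so their gene and promoter values are the same measurement. MYL9 had 2 regions, 1 of them with a peak at 6 h only. The promoters of CNN1 and MYL9 were weak in solvent, with an AUC of 461 and 562. The lowest gene was ANLN at −0.02. Integrins had a median of 0.15, with ITGA1, a collagen receptor subunit, highest (0.55), followed by the fibronectin receptor subunit ITGA5 (12208 and 23115, 0.48), and ITGA3 lowest (−0.06).

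Epithelial junction genes and epithelial regulators sat at the level of all genes, with a median of 0.07 over 32 genes. None of these passed either limit (background 9.21% and 0.297%). CDH1, the gene of E-cadherin, had 12147 and 18289 over 13 regions (0.15), and EPCAM 12823 and 19793 (0.19). TJP1, a tight junction scaffold gene, and RBM47, an RNA-binding protein gene, were highest with 0.31 each, and the polarity gene CRB3, with 1 region, was lowest at −0.40. N-cadherin (CDH2), the mesenchymal counterpart of E-cadherin, had 5649 and 10621 (0.47). At the promoters 1 epithelial gene was at 0.5 or more, TP63 (245 and 672, 1.01), and 2 were at −0.5 or less, EHF and the claudin gene CLDN4 (1746 and 1548, −0.61). The shares over all promoters were 3.04% and 0.545%.

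The medians of the remaining lists stayed near 0. EGF receptor ligands and ERK feedback genes had a median of 0.0046 and none of 20 past either limit (background 9.21% and 0.297%). They went from BTC and DUSP4 (0.29 each) down to DUSP1, a MAP kinase phosphatase gene (72969 and 88211, −0.17). Cell cycle genes had a median of −0.04, with CDK6 and CCND2 highest (0.29 each) and CCNE2, a cyclin E gene, lowest (356 and 339, −0.51), the only one of 20 past a limit (background 0.297%). That CCNE2 value rests on 1 weak region, whereas the CCNE2 promoter had 5818 in solvent and 7379 at 6 h (−0.098). Ribosomal protein genes had a median of −0.04, with RPL11 highest (0.36). With the AUC per base the medians of the 12 lists lay between −0.14 and −0.01, beside −0.08 for all genes.

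Windows of 200 kb were ranked to find loci where several regions moved together. Of 7045 windows with at least 5 regions and a mean summed AUC of at least 5000, the median relative log2 was 0.12, and 12 windows reached 1. Windows are named by the protein-coding genes nearest to their regions, which can lie outside the window. The highest was that of BCL11A, a zinc finger repressor gene, at chr2:59600001-59800000. Its 9 regions, 5 of them at 6 h only, summed to 3180 in solvent and 10340 at 6 h (1.26). It was followed by the window of MIPEP and TNFRSF19, a TNF receptor family gene (chr13:23600001-23800000, 1.22), of ATP1B1 and DPT, the latter the gene of the matrix protein dermatopontin (chr1:168800001-169000000, 1.18), of NEBL (chr10:20800001-21000000, 1.15), of BTG1 (chr12:92200001-92400000, 1.12) and of MSC and TRPA1 (chr8:71800001-72000000, 1.09). In the ATP1B1 and DPT window 3 of 8 regions had a peak at 6 h only and so no relative log2. Of its shared regions 3 had a relative log2 of at least 1, and the median over the shared regions was 1.24. At the other end no window was below −0.5, and the lowest were the window of SHANK1 and SMIM47 on chromosome 19 (−0.41) and a window on the short arm of chromosome 21 (−0.38). By chromosome, the medians of shared regions lay between 0.0029 (chromosome 19) and 0.12 (X).

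The distal shared regions were then sorted by relative log2 into 10 deciles, and the 201 bp around the summit of the 6 h peak were searched for 14 motifs on both strands. A match is a description of letters and not evidence of binding. The AP-1 motif TGACTCA was in 37.9% of all 49327 distal shared regions, in 18.5% of the lowest decile (95% Wilson interval 17.4 to 19.6) and in 46.4% of the highest (45.0 to 47.8), and it increased at every step between. Of the 2130 distal regions at 1 or more it was in 46.4% (44.3 to 48.5), and of the 124 at −1 or less in 6.45% (3.31 to 12.2). Distal regions with a peak at 6 h only held it in 37.2%, near the share of all, and those with a solvent peak only in 10.2%.

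SMAD elements had their steepest step at the top. The single element GTCTGG was in 13.2% of all distal shared regions, in 8.84% of the lowest decile, 16.2% of the ninth and 21.6% of the highest, and in 25.4% of the regions at 1 or more. The paired element GTCTNGAC was in 1.30% of all, 0.79% of the lowest decile, 2.29% of the highest and 2.77% of the regions at 1 or more. Of the windows of the 8 highest named regions, 3 held the paired element and 2 the single one. AP-1 and a SMAD element together were in 0.97% of the lowest decile and 9.51% of the highest.

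E-box and C/EBP motifs had the opposite order. CACCTG was in 19.4% of all distal shared regions, 29.3% of the lowest decile and 13.8% of the highest, and TTNNGCAA in 15.6%, 23.3% and 12.3%. Among distal regions with a solvent peak only, they were in 29.9% and 28.6%. The TEAD motif GGAATG went from 14.9% to 19.3% and the RUNX motif TGTGGTT from 5.51% to 8.35%, whereas the KLF motif GGGNGTGGC went from 3.30% to 1.48%, the ETS motif CCGGAA from 3.95% to 2.25%, and CTCF from 1.16% to 0.06%. The FOX motif TGTTTAC (3.45% and 4.50%), the GRHL motif AACNGGTT (2.01% and 1.34%), the NF-kB motif GGGANTTCC (1.46% and 0.95%) and the CRE motif TGACGTCA (0.32% and 0.22%) differed less in points.

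The deciles also differed in other ways. The median GC content of the windows was 49.3% in the lowest decile and 45.3% in the highest, the median mean AUC 606 and 629, with 1096 in the third, and the median distance to a TSS 13100 and 16796 bp, and the part of these in the motif shares was not tested. With deciles set after centring on like AUC, AP-1 was in 18.2% of the lowest and 46.6% of the highest and the single SMAD element in 9.0% and 22.7%. With the AUC per base the gap for AP-1 between the highest and the lowest decile was 6.95 points, against 27.9 points with the summed AUC.

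**Figure D3:**
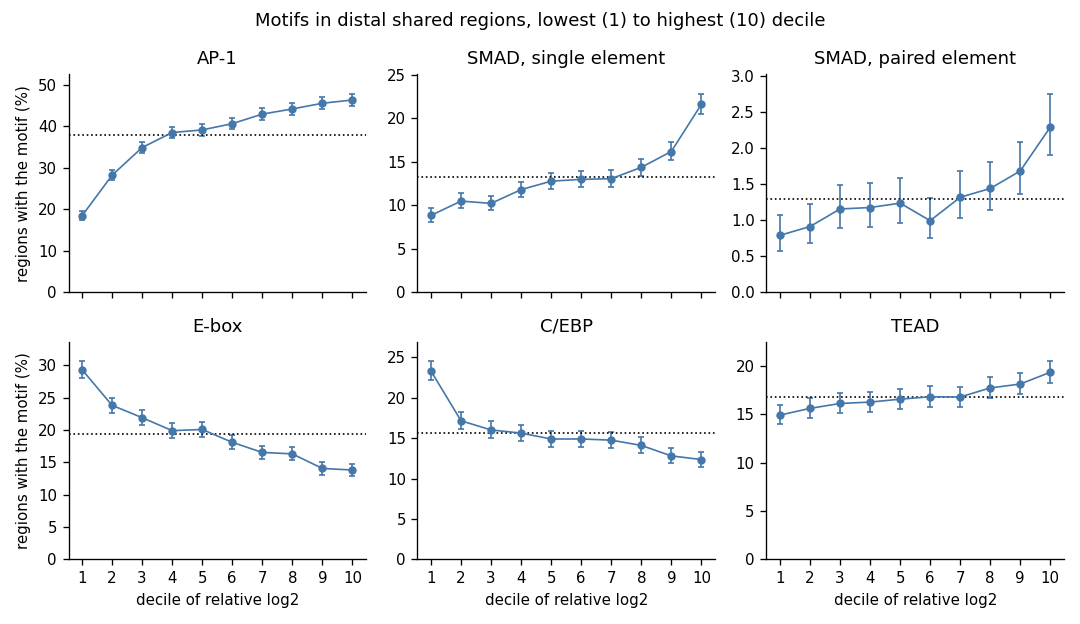
Share of distal shared regions (%) with each of 6 motifs in the 201 bp around the summit, by decile of relative log2 from lowest (1) to highest (10). Bars are 95% Wilson intervals, which cover counting error only, and the dotted line is the share over all distal shared regions. AP-1 and SMAD elements increase toward decile 10, E-box and C/EBP decrease.

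The identity of the cells was checked by promoter peaks of marker genes. All 8 markers of basal and mammary epithelial cells, such as KRT5, KRT14 and TP63, had promoter peaks in both lists, with a summed AUC of 47165 in solvent and 84521 at 6 h. LAMB3 alone held 17932 and 44578 of these sums, so most of their difference came from 1 gene. Of the luminal markers 7 of 8 had a promoter peak, PGR having none. Promoter peaks were also present at 4 of 6 leukocyte, 2 of 4 endothelial, 2 of 4 hepatocyte and 3 of 4 neuronal markers, while markers such as CD3E, CDH5, TEK, ALB, TTR and ELAVL4 had none in either list. The summed AUC of the leukocyte markers was 9458 in solvent and 11665 at 6 h, and that of the endothelial markers 1805 and 2308. The number of marker promoters with a peak was the same in both lists for each cell type.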

How the data were processed

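ATAC-seq peak lists of MCF10A cells treated with solvent or with TGFβ1 for 6 h were used, 1 list per condition. As the study's methods state, the authors trimmed reads, mapped them to GRCh38, removed duplicates and low-quality alignments, called peaks with Genrich on both replicates together and removed blacklisted regions. The submitters' processing notes name Trimmomatic 0.38, Bowtie2 2.4.5, Picard, SAMtools 1.4.1 and Genrich 0.5. The AUC, the signal column of the deposited lists, was not scaled between lists by the authors, and the deposited −log10 q values were read only for their minimum (2.84 and 2.92). The study's methods give a nominal number of reads per sample, and the totals reached are unknown. Conditions were assigned by the authors' list names.

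Regions, sums and centring were computed as given in the results, with GENCODE 44 for genes and with Python 3.11.15 (pandas 2.3.3, numpy 2.4.6, scipy 1.17.1). Centring and region calls were tested on a simulated 6 h list, made from the solvent peaks by changing their AUC alone. It had no peaks in 1 list only and no changed widths, so these were not covered by it. The text names the 8 highest and 8 lowest shared regions with a mean AUC of at least 1000, 6 regions with a 6 h peak only and 5 with a solvent peak only, the 10 highest and 6 lowest genes, the 5 highest and 5 lowest promoters by the same minimum, windows, the 2 highest members and the lowest member of each list, and 12 fixed genes. Further list members were chosen after their values were seen. Results for a few genes, with the regions nearest to some of them, and a sequence window are not reported here, whereas counts, medians and shares include them. Members and lists were chosen with earlier results of these data known. The lists were limited to 255 genes in 12 groups. Alternatives covered lists of equal length, a minimum AUC of 400, the AUC per base, the strongest peak, an overlap of 50%, other centrings, and other gene assignments. The use of shared regions only and of the solvent summit was chosen after seeing the data.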

Additional observations from a re-analysis of the deposited data

How the results depend on the processing

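No paired analysis was possible because each list pools both replicates, and for the same reason no replicate could be left out. With lists of equal length, 58 regions were low, the distal median was 0.13, 8011 regions had a peak at 6 h only and 4991 in solvent only, 906 genes were high and 130 low, and the AP-1 gap between the highest and lowest decile was 25.5 points. With a minimum AUC of 400, 978 regions were high and 32 low, the distal median was 0.089, and 285 regions had a solvent peak only. With the AUC per base, 699 regions were high and 426 low, the distal median was 0.047, 166 genes were high and 524 low, and the AP-1 gap was 6.95 points. The distal median was 0.11 with the strongest peak, 0.10 with an overlap of 50%, which left 9084 regions with a solvent peak only, and 0.056 when centred on all shared regions. Centred on like AUC, 1581 regions were high and 353 low, the distal median was 0.016, and 185 genes were low. With the nearest TSS of any gene, 4877 genes were high and 229 low. With shared regions only, 561 genes were high. The distal median stayed above 0 in each of these.

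With the AUC per base 29 of 61 named genes changed sign, 18 of them under the limit of 0.5 before and 11 past it: ENSG00000289710 (−0.053), PNMA8A (−0.095), PIK3C2G (−0.0087), FN1 (−0.11), TGIF2 (−0.10), TGFBI (−0.37), GSC (−0.93), PRRX1 (−0.037), POSTN (−0.25), ITGA1 (−0.24) and KANK4 (−0.10). Over all named genes and alternatives, 553 values kept their side of the limit of 0.5, of which 40 changed sign, 14 newly passed it and 23 no longer did. Without the AUC per base, 22 values changed sign, none of a gene past the limit. The causes were not tested. The read totals reached are unknown, and regions near the peak limit of 200 are the least certain.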

Other observations

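Some of the regions that stood out lay far from any annotated protein-coding start site. The 6 h region nearest to HS6ST1 was 63268 bp from the closest start site of any annotated gene, and the high shared region nearest to ADAM29 was 108590 bp from one. Of the promoters of the 8 basal epithelial markers 3 had a relative log2 of at least 0.5, against 3.04% of all promoters. They were KRT17 (AUC 1741 in solvent and 3862 at 6 h, 0.71), LAMB3 (0.87) and TP63 (1.01), the last with an AUC of only 245 in solvent. KRT14 (0.30) and CDH3 (0.10) were lower, and KRT5 (−0.12), ITGB4 (−0.06) and EGFR (−0.20) were below 0. KRT17, LAMB3 and TP63 were singled out after their values had been seen. At the luminal markers GATA3 and FOXA1 the promoters were at −0.05 and 0.07.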
